A study of Mus musculus with 19 samples.

Results

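The dehydrogenases and reductases that interconvert aldehydes, alcohols, hydroxysteroids and retinoids were examined in whole mouse kidney RNA. The genes were taken by symbol: Aldh, Adh, Akr, Hsd, Dhrs or Rdh followed by a digit, with at least 100 counts summed over the 19 libraries. Hsd11b1, Hsd11b2, Hsd17b4 and Hsd17b7 were left out by name, and so were 2 pseudogene symbols. Of 91 rows with such symbols, among 55536 genes in all, 67 remained, and a further 18 were below the minimum. These 67 genes were placed in 8 lists by the role of their products: 4 retinaldehyde dehydrogenases, 12 retinol and retinal dehydrogenases, 8 aldehyde dehydrogenases of detoxification, 9 of amino acid, folate and carnitine metabolism, 4 alcohol dehydrogenases, 15 aldo-keto reductases, 9 hydroxysteroid dehydrogenases and 6 other short-chain dehydrogenases.

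The 3 groups were 8 libraries of obstructed kidneys given zalfermin (UUO zalfermin), 7 of obstructed kidneys given vehicle (UUO vehicle) and 4 of healthy kidneys given vehicle. UUO is the usual short form of unilateral ureteral obstruction, in which a ureter is tied and the kidney becomes fibrotic, and zalfermin is named in the series title as a long-acting analogue of the hormone FGF21. The sample labels give MASH as the condition of the 15 obstructed libraries where the design gives UUO. They describe the healthy kidneys as untreated, against vehicle in the design, and name the drug only by a code, here taken to be zalfermin. No source used here gives the strain, sex, age, dose, duration or whether each library came from its own animal. The p-values therefore set a difference between groups only against the spread between these libraries, and part of that spread may be technical.

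Aldehyde dehydrogenases oxidise aldehydes to acids with NAD or NADP, and the mitochondrial and cytosolic forms serve the breakdown of amino acids, the folate cycle, carnitine synthesis and the clearance of lipid and alcohol-derived aldehydes. Retinoic acid is made in consecutive oxidations: a short-chain dehydrogenase such as Rdh10 turns retinol into retinaldehyde, and an Aldh1a enzyme turns retinaldehyde into retinoic acid, while Dhrs3 reduces retinaldehyde back to retinol. Aldo-keto reductases reduce carbonyl groups of sugars, lipid aldehydes and steroids with NADPH, and hydroxysteroid dehydrogenases set the activity of sex steroids. In the kidney many of these enzymes belong to the proximal tubule.

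Libraries held 12209122 to 14844103 counts, and 16026 genes, 65 of the 67 among them, had enough counts to be tested. Levels are CPM, counts scaled to a library's TMM-adjusted total, and compare a gene between libraries, not genes with each other. A gene was called where edgeR's quasi-likelihood test gave an adjusted p below 0.05. Replicate 6 of the UUO vehicle group stood apart on the second principal component (8.41% of the variance), and it held the highest level of its group for 29 of the 65 tested genes. It also had the smallest share of mitochondrially encoded counts in its group (1.10%, against 3.09% to 4.21% in the other 6) and the fewest genes detected (19788). Mitochondrially encoded genes took 3.56% ± 0.466 of counts in UUO zalfermin, 3.20% ± 0.999 in UUO vehicle and 9.56% ± 0.608 in healthy kidneys (SD, n = 8, 7 and 4), and the part of this difference in the values below was not tested beyond the removal of these genes, which changed no obstruction call. The 8 proximal tubule markers examined, among them Lrp2 and Slc34a1, were all present in every group, with summed levels of 2436 to 4782 CPM in UUO zalfermin, 2156 to 4560 CPM in UUO vehicle and 12555 to 15625 CPM in healthy kidneys.

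Together the 67 genes took 0.603% ± 0.0410 of the counts in UUO zalfermin, 0.623% ± 0.0762 in UUO vehicle and 1.19% ± 0.0727 in healthy kidneys (SD, n = 8, 7 and 4). Their summed level was 5760.4 ± 481 CPM in UUO zalfermin, 5817 ± 804 CPM in UUO vehicle and 14955 ± 1477 CPM in healthy kidneys. The lowest healthy sum, 12928 CPM, lay above the highest obstructed sum, 7261 CPM. The lists did not all differ in the same direction: the 4 retinaldehyde dehydrogenases summed to 150.1 ± 29.3 CPM in UUO zalfermin, 149.5 ± 20.1 CPM in UUO vehicle and 42.1 ± 5.06 CPM in healthy kidneys, while each of the other 7 lists had its highest mean in healthy kidneys.

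**Figure D1:**
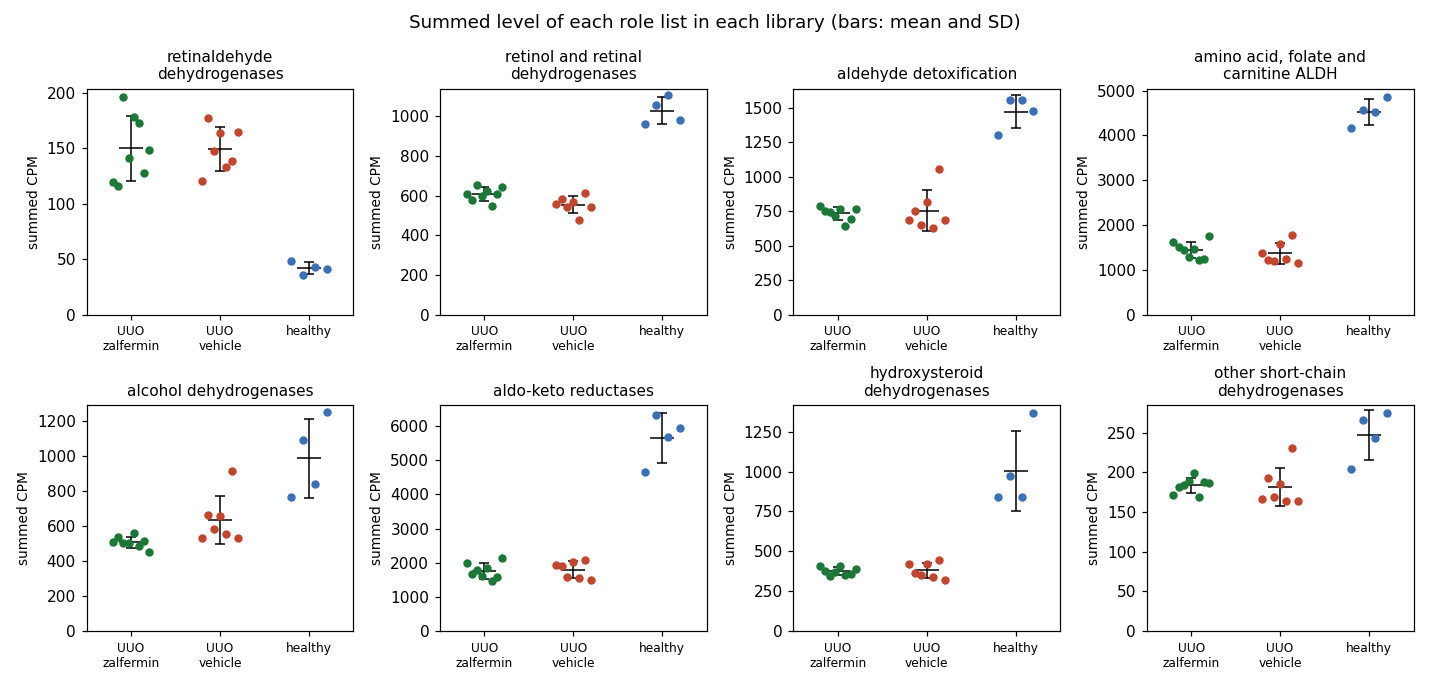
Summed CPM of each of the 8 role lists in each library (points), by group, with mean and SD (bars). The retinaldehyde dehydrogenases were higher in both obstructed groups (at least 116 CPM, against at most 48.3 CPM in healthy kidneys), and the amino acid, folate and carnitine list was higher in healthy kidneys (at least 4160 CPM, against at most 1770.4 CPM in UUO vehicle kidneys).

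The comparison of UUO vehicle with healthy kidneys asked what obstruction changed. Of the 65 tested genes 38 fell (58.5%) and 15 rose (23.1%), and 12 were not called. Among all 16026 tested genes 28.6% were called lower and 36.2% higher. A fall of at least 2-fold was called for 25 of the 65, against 10.7% of all tested genes, and a rise of at least 2-fold for 9, against 19.6%. The UUO vehicle libraries lay wholly below the healthy ones for 31 of the 65 genes (19.5% of all tested genes) and wholly above them for 13 (24.7%). Aldh3a1 and Dhrs9 are included in each of these counts of rises. Both had few counts in every healthy library and were tested through their counts in obstructed libraries. Adh7 had 18, 16, 3 and 7 counts in the healthy libraries, and Rdh12 had 6, 11, 11 and 10. Adh7 and Rdh12 were likewise tested through their counts in obstructed libraries. They are among the 15 rises and the 9 rises of at least 2-fold, and Rdh12 is also among the 13 wholly above. The median log2 fold change was -0.62 over the 65 genes and 0.09 over all tested genes. All 8 proximal tubule markers fell too, with log2 fold changes of -3.29 to -1.60. So did 3 of 4 thick ascending limb markers (Umod, Slc12a1 and Kcnj1) and 3 of 4 collecting duct markers (Aqp2, Aqp3 and Atp6v1g3). All 6 fibroblast and all 6 macrophage markers rose. The part of these markers in the changes of the dehydrogenases was not tested. In whole tissue, fewer cells of a type and less RNA per cell cannot be told apart.

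**Figure D2:**
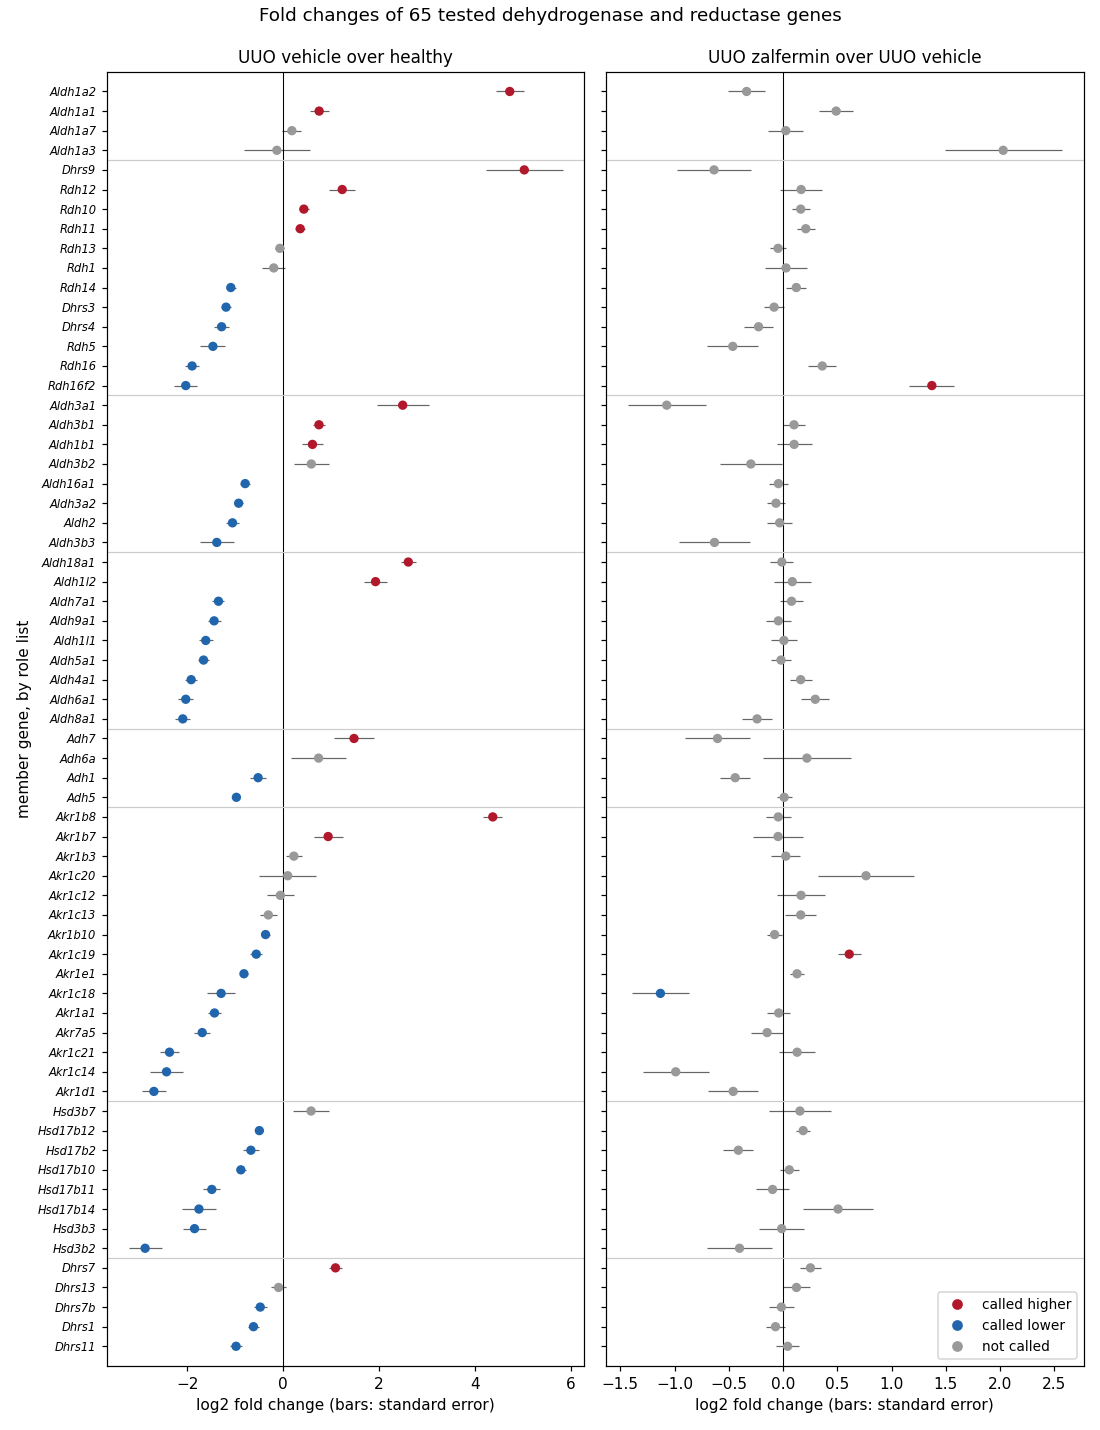
Log2 fold change with its standard error for the 65 tested genes in both comparisons, grouped by role list and ordered within a list by the obstruction value; colours mark calls by edgeR (adjusted p below 0.05). With obstruction 15 genes were called higher and 38 lower, and with zalfermin 2 were called higher and 1 lower.

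Retinaldehyde dehydrogenases, which make retinoic acid, split into 2 that rose and 2 that were not called. Aldh1a2, the main retinoic acid producing enzyme of mesenchyme in the mouse embryo (ENSMUSG00000013584, GRCm38 chromosome 9, 71215789 to 71296243, plus strand), showed the largest rise of a well expressed gene of the family. Its level was 58.2, 70.6 and 124 CPM (lowest, median and highest) in UUO zalfermin kidneys and 70.9, 99.2 and 127 CPM in UUO vehicle kidneys, against 2.05, 5.77, 2.87 and 4.62 CPM in the 4 healthy kidneys. Every obstructed library lay above every healthy library, and the obstructed groups overlapped each other. The log2 fold change of UUO vehicle over healthy was 4.73 (SE 0.293, edgeR adjusted p = 5.09e-12), a 26.5-fold difference.

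Markers of other cell types moved beside Aldh1a2. The 6 fibroblast markers summed to 614 to 968 CPM in UUO zalfermin, 1006 to 1914 CPM in UUO vehicle and 102 to 176 CPM in healthy kidneys, with none at 0. The 5 mesothelium markers summed to 92.3 to 121 CPM in UUO zalfermin, 75.8 to 127 CPM in UUO vehicle and 208 to 264 CPM in healthy kidneys. Most of each sum was Gpm6a, with means of 90.1, 83.5 and 235 CPM in the same order, and it was called lower with obstruction. Msln, with means of 8.88, 8.46 and 1.38 CPM, was called higher. Upk3b and Lrrn4 were not called, and Muc16, not tested, was at 0 in healthy kidneys. Their part in the rise of Aldh1a2 was not tested. The promoter of Aldh1a2 is shown because its transcript rose most among the well expressed genes of the family. It runs from 250 bases before to 50 bases after the RefSeq start (GRCm38.p6, plus strand, chr9:71215539-71215838), and capitals mark a CCAAT box 36 bases before the start and a match to TGACNNNGC, the core of the antioxidant response element, 112 bases before it.

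Aldh1a2: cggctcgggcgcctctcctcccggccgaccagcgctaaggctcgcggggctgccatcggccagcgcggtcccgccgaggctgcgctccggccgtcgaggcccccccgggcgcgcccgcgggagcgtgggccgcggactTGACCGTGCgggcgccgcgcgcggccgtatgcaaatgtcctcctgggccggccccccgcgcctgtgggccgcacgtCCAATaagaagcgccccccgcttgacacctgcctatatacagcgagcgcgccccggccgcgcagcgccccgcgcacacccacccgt

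Aldh1a1, which oxidises retinaldehyde and other aldehydes, had 22.2, 24.7 and 35.1 CPM in UUO zalfermin kidneys and 12.6, 17.1 and 31.2 CPM in UUO vehicle kidneys, against 12.3, 9.59, 12.5 and 10.4 CPM in healthy kidneys. It rose with obstruction by 0.75 on the log2 scale (SE 0.199, edgeR adjusted p = 0.00219), and the lowest UUO vehicle library lay just above the highest healthy one. Its rodent relative Aldh1a7 (log2 0.18, edgeR adjusted p = 0.433) and Aldh1a3 (log2 -0.13, edgeR adjusted p = 0.878) were not called. Aldh1a3, another retinoic acid producing enzyme, had 10.1, 4.62, 2.02 and 2.36 CPM in the healthy kidneys and the widest spread between libraries of the 50 genes examined for it in each group.

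Enzymes around retinaldehyde moved in opposite directions. Rdh10, which forms retinaldehyde from retinol, had 167, 203 and 255 CPM in UUO zalfermin kidneys and 155, 180 and 202 CPM in UUO vehicle kidneys, against 125, 137, 128 and 149 CPM in healthy kidneys. It rose by 0.43 on the log2 scale (SE 0.105, edgeR adjusted p = 9.98e-04), with no overlap between UUO vehicle and healthy libraries. Dhrs3, which reduces retinaldehyde, had 75.0, 86.8 and 103 CPM in UUO zalfermin kidneys and 82.4, 95.2 and 105 CPM in UUO vehicle kidneys, against 221, 228, 232 and 170.0 CPM in healthy kidneys. Its log2 fold change was -1.19 (SE 0.105, edgeR adjusted p = 1.42e-09), and every healthy library lay above every obstructed one. Within a library the ratio of Rdh10 to Dhrs3 CPM had a median of 2.24 (1.83 to 3.27) in UUO zalfermin, 2.05 (1.47 to 2.19) in UUO vehicle and 0.584 (0.551 to 0.876) in healthy kidneys. The ratio shows unequal change of the transcripts, and the ranges of the obstructed groups did not overlap with the healthy range.

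Of the 12 retinol and retinal dehydrogenases 4 rose, 6 fell and 2 (Rdh1 and Rdh13) were not called, with a median log2 fold change of -0.64. Beside Rdh10, the retinal reductases Rdh11 (log2 0.36) and Rdh12 (log2 1.23) rose, as did the retinol dehydrogenase Dhrs9. Dhrs9 had 107 counts in the 7 UUO vehicle libraries and 1 count in the 4 healthy libraries, a ratio of 60.6 per count sequenced with an exact 95% interval of 10.7 to 2416 that covers counting error only. Falls were called for Rdh14 (log2 -1.09), the peroxisomal carbonyl reductase gene Dhrs4 (log2 -1.28), Rdh5 (log2 -1.46), Rdh16 (log2 -1.90) and Rdh16f2 (log2 -2.03). Rdh16, a microsomal retinol dehydrogenase, had 44.4, 67.5 and 75.5 CPM in UUO zalfermin kidneys and 37.6, 46.2 and 63.9 CPM in UUO vehicle kidneys, against 179, 172, 208 and 154 CPM in healthy kidneys (edgeR adjusted p = 2.55e-10). All healthy libraries lay far above the obstructed ones. Of the stretches of 50 bases in Rdh5 transcripts, 20.4% also occur in Bloc1s1, so reads could be assigned to either gene, and 13.98% of those of Rdh16 occur in other genes.

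Other genes of retinoid handling and signalling were read from a list of 21, of which 15 were tested: 6 rose and 4 fell with obstruction, with a median log2 fold change of 0.07. Stra6, the membrane receptor for retinol-binding protein, rose by 3.58 on the log2 scale (edgeR adjusted p = 3.94e-13), and the receptor gene Rarg rose by 1.17. The falls were in Lrat (log2 -1.95), which esterifies retinol for storage, Cyp26b1 (log2 -2.38), which breaks down retinoic acid, Bco2 (log2 -1.88), which cleaves carotenoids, and the nuclear receptor gene Rxra (log2 -0.71).

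The 8 aldehyde dehydrogenases of detoxification were mixed, with 3 that rose, 4 that fell and Aldh3b2 not called, and a median log2 fold change of -0.10. Aldh2, the mitochondrial enzyme that clears acetaldehyde and lipid aldehydes, had 402, 497 and 504 CPM in UUO zalfermin kidneys and 378, 439 and 737 CPM in UUO vehicle kidneys, against 902, 1086, 1114 and 936 CPM in healthy kidneys. Every healthy library lay above every obstructed one, and the log2 fold change was -1.06 (SE 0.134, edgeR adjusted p = 4.03e-07). The fatty aldehyde dehydrogenase gene Aldh3a2 (log2 -0.93), Aldh16a1 (log2 -0.79) and the weakly expressed Aldh3b3 (log2 -1.38) fell as well. Aldh3b1, which oxidises lipid aldehydes, rose by 0.75 on the log2 scale (edgeR adjusted p = 3.40e-05), with means of 23.2 ± 3.06 CPM in UUO zalfermin, 21.6 ± 2.69 CPM in UUO vehicle and 12.9 ± 2.42 CPM in healthy kidneys. Aldh3a1, an enzyme best known from the cornea, rose by 2.49 on the log2 scale at a low level. Its means were 1.21 ± 0.588 CPM in UUO zalfermin, 2.57 ± 1.57 CPM in UUO vehicle and 0.444 ± 0.207 CPM in healthy kidneys. The healthy libraries held only 3, 8, 6 and 3 counts of Aldh3a1. The mitochondrial Aldh1b1 rose by 0.61 on the log2 scale (edgeR adjusted p = 0.0150), a call lost without healthy replicate 1 or 2 (edgeR adjusted p = 0.0502 and 0.0527).

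Genes that produce aldehydes were read from a list of 8 amine and polyamine oxidases and related enzymes, all tested, of which 5 rose and 2 fell with obstruction. Aoc1, the diamine oxidase gene, had a mean of 346 ± 47.3 CPM in UUO zalfermin, 344 ± 37.2 CPM in UUO vehicle and 9.17 ± 1.80 CPM in healthy kidneys (log2 fold change of UUO vehicle over healthy 5.23, edgeR adjusted p = 1.81e-16). Smox, the spermine oxidase gene, rose by 2.44, Aoc3 by 1.30, Maoa by 0.52 and Paox by 0.47 on the log2 scale. Cyp2e1, which oxidises ethanol, fell by 1.72 on the log2 scale, and Maob fell by 0.72. None of the 8 was called under zalfermin by edgeR, and 2 had an unadjusted p below 0.05.

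Most of the aldehyde dehydrogenases of amino acid, folate and carnitine metabolism fell: 7 of 9 were called at least 2-fold lower, 2 rose and the median log2 fold change was -1.61. Each gene that fell had every UUO vehicle library below every healthy one. Aldh6a1, the methylmalonate semialdehyde dehydrogenase of valine breakdown, had 351, 415 and 605 CPM in UUO zalfermin kidneys and 271, 343 and 483 CPM in UUO vehicle kidneys, against 1431, 1310.0, 1430.2 and 1546 CPM in healthy kidneys. Its log2 fold change was -2.03 (SE 0.154, edgeR adjusted p = 1.36e-10). Aldh8a1, an enzyme of tryptophan breakdown, had a mean of 119 ± 22.4 CPM in UUO zalfermin, 140.3 ± 38.1 CPM in UUO vehicle and 598 ± 70.9 CPM in healthy kidneys, and fell by 2.09 on the log2 scale. The other falls were in Aldh5a1 (log2 -1.66), which completes the breakdown of GABA, Aldh1l1 (log2 -1.61), the cytosolic formyltetrahydrofolate dehydrogenase, Aldh9a1 (log2 -1.44) of carnitine synthesis, and Aldh7a1 (log2 -1.35) of lysine breakdown. Aldh6a1 overlaps Bbof1 and Aldh7a1 overlaps Phax on the opposite strand, and no source used here says whether the counting used strand.

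Proline synthesis and proline breakdown genes of this list went opposite ways. Aldh18a1, which encodes the pyrroline carboxylate synthase at the entry to proline synthesis (ENSMUSG00000025007, GRCm38 chromosome 19, 40550257 to 40588463, minus strand), had 18.6, 22.4 and 25.5 CPM in UUO zalfermin kidneys and 16.6, 22.9 and 26.5 CPM in UUO vehicle kidneys, against 4.80, 3.55, 3.04 and 3.34 CPM in healthy kidneys. The lowest obstructed library was above the highest healthy one, and the log2 fold change of UUO vehicle over healthy was 2.61 (SE 0.159, edgeR adjusted p = 3.92e-12). Aldh4a1, which encodes the enzyme that oxidises pyrroline carboxylate to glutamate (ENSMUSG00000028737, GRCm38 chromosome 4, 139622866 to 139649690, plus strand), had 110.3, 129 and 151 CPM in UUO zalfermin kidneys and 100.3, 108 and 166 CPM in UUO vehicle kidneys, against 375, 473, 414 and 471 CPM in healthy kidneys. All 15 obstructed libraries lay below the 4 healthy ones (log2 fold change of UUO vehicle over healthy -1.92, SE 0.119, edgeR adjusted p = 5.06e-12). Within a library the ratio of Aldh18a1 to Aldh4a1 CPM had a median of 0.176 in UUO zalfermin, 0.216 in UUO vehicle and 0.00741 in healthy kidneys, and the highest healthy ratio (0.0128) was below the lowest obstructed one (0.140). Gm21969 shares 30.03% of the 50-base stretches of Aldh4a1 but had 8 counts over the 19 libraries.

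The folate pair showed the same kind of split. Aldh1l2, the mitochondrial formyltetrahydrofolate dehydrogenase, had 7.81, 9.70 and 13.7 CPM in UUO zalfermin kidneys and 6.86, 8.41 and 13.9 CPM in UUO vehicle kidneys, against 2.58, 2.13, 1.43 and 3.83 CPM in healthy kidneys. It rose by 1.93 on the log2 scale (SE 0.245, edgeR adjusted p = 4.04e-07), with no overlap between UUO vehicle and healthy libraries. The cytosolic Aldh1l1 had 221, 266 and 284 CPM in UUO zalfermin kidneys and 213, 229 and 417 CPM in UUO vehicle kidneys, against 699, 826, 814 and 779 CPM in healthy kidneys. The median ratio of Aldh1l2 to Aldh1l1 CPM within a library was 0.0389 in UUO zalfermin, 0.0388 in UUO vehicle and 0.00314 in healthy kidneys. Aldh1l2 overlaps D10Wsu102e on the opposite strand.

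**Figure D3:**
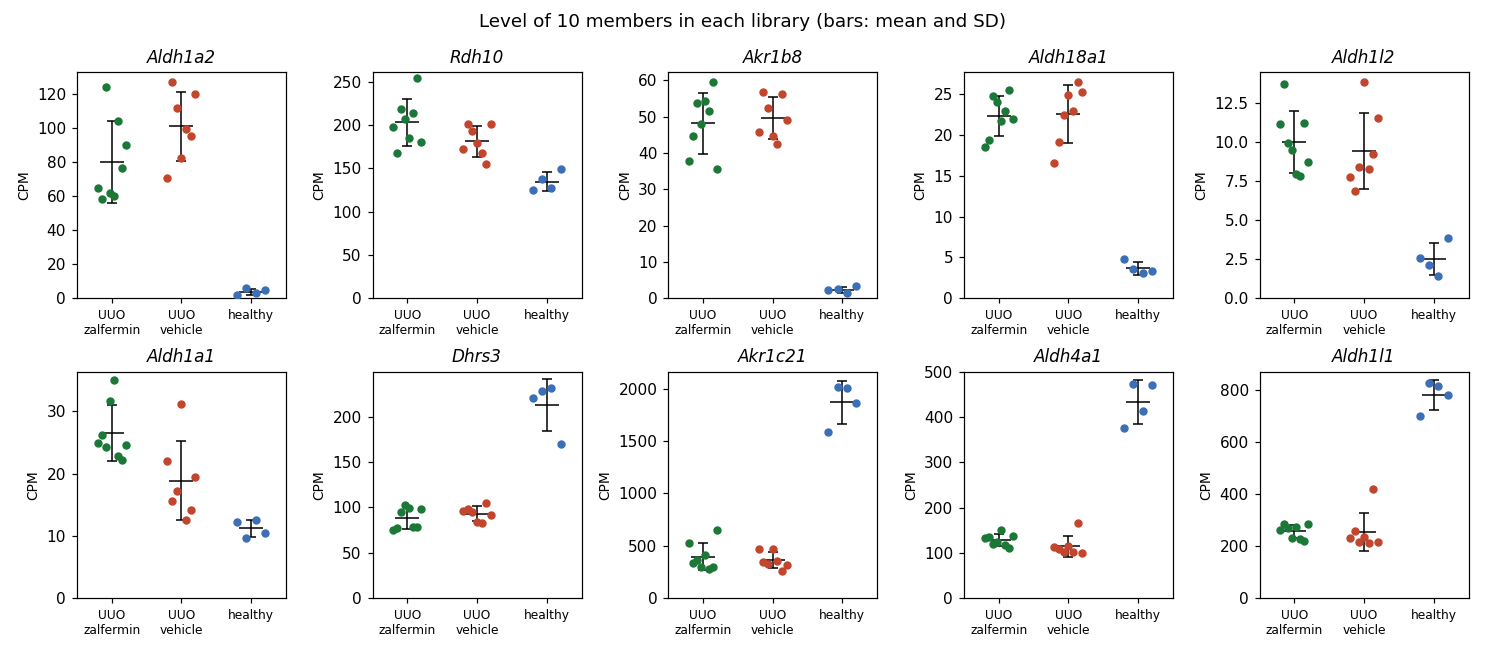
CPM of 10 genes in each library (points), by group, with mean and SD (bars). Aldh1a2, Rdh10, Akr1b8, Aldh18a1, Aldh1l2 and Aldh1a1 were higher in UUO vehicle than in healthy kidneys, and Dhrs3, Akr1c21, Aldh4a1 and Aldh1l1 were lower, with no overlap of these 2 groups in any of the 10 panels.

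Among the 4 alcohol dehydrogenases Adh1 and Adh5 fell, Adh7 rose and Adh6a was not called. Adh5, which oxidises the formaldehyde adduct of glutathione, had 140.0, 156 and 163 CPM in UUO zalfermin kidneys and 137, 155 and 164 CPM in UUO vehicle kidneys, against 249, 332, 288 and 331 CPM in healthy kidneys. Healthy libraries were all above the obstructed ones (log2 fold change of UUO vehicle over healthy -0.97, SE 0.0816, edgeR adjusted p = 6.32e-10). Adh1, the class of enzyme that oxidises ethanol and retinol, had 297, 354 and 392 CPM in UUO zalfermin kidneys and 381, 426 and 754 CPM in UUO vehicle kidneys, against 518, 757, 549 and 919 CPM in healthy kidneys. UUO vehicle replicate 6 had the 754 CPM and overlapped the healthy range. The log2 fold change of Adh1 with obstruction was -0.52 (edgeR adjusted p = 0.00740) and was not called without healthy replicate 4 (edgeR adjusted p = 0.0732). Adh7, which oxidises retinol in the stomach and skin, rose by 1.48 on the log2 scale at a level of 1.82 ± 0.638 CPM in UUO zalfermin, 2.77 ± 1.03 CPM in UUO vehicle and 0.991 ± 0.631 CPM in healthy kidneys. Adh7, with 543 counts over the 19 libraries, overlaps 0610031O16Rik (925 counts) on the opposite strand.

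Of the 15 aldo-keto reductases 9 fell, 2 rose and 4 were not called, with a median log2 fold change of -0.56. Akr1b8, which was found as a gene induced by fibroblast growth factor in mouse fibroblasts, had 35.5, 49.8 and 59.5 CPM in UUO zalfermin kidneys and 42.6, 49.2 and 56.9 CPM in UUO vehicle kidneys, against 2.31, 2.49, 1.43 and 3.44 CPM in healthy kidneys. The obstructed groups overlapped, far above the healthy one, and the log2 fold change of UUO vehicle over healthy was 4.37 (SE 0.197, edgeR adjusted p = 5.52e-14), a 20.7-fold difference. Its neighbours on chromosome 6 differed: Akr1b7, a reductase known from vas deferens and adrenal, rose by 0.94, Akr1b10 fell by 0.37, and Akr1b3 was not called (log2 0.22, SE 0.166, edgeR adjusted p = 0.242). Akr1b3 is aldose reductase, which turns glucose into the osmolyte sorbitol, and its means were 57.4 ± 15.1 CPM in UUO zalfermin, 56.5 ± 7.55 CPM in UUO vehicle and 48.4 ± 6.81 CPM in healthy kidneys. In the list of 6 polyol and osmolyte genes, Sord (log2 -2.19), which oxidises sorbitol to fructose, Khk (log2 -2.04), which phosphorylates fructose, and the osmolyte carriers Slc5a3 (log2 -0.72) and Slc6a12 (log2 -2.30) fell. Nfat5, the transcription factor of osmotic stress, rose by 0.86 on the log2 scale, and Slc6a6 was not called.

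Several aldo-keto reductases that act on steroids fell. Akr1c21, a hydroxysteroid dehydrogenase abundant in mouse kidney (ENSMUSG00000021207, GRCm38 chromosome 13, 4574075 to 4586541, plus strand), had 280.0, 351 and 649 CPM in UUO zalfermin kidneys and 258, 341 and 473 CPM in UUO vehicle kidneys, against 1584, 2018, 2011 and 1869 CPM in healthy kidneys. On the log2 scale UUO vehicle over healthy was -2.37 (SE 0.196, edgeR adjusted p = 5.35e-10). Akr1c14, which reduces dihydrotestosterone, had 13.1, 31.5 and 99.7 CPM in UUO zalfermin kidneys and 37.5, 64.7 and 136 CPM in UUO vehicle kidneys, against 364, 408, 400 and 495 CPM in healthy kidneys (log2 -2.43, edgeR adjusted p = 2.49e-06). Akr1d1, the steroid beta-reductase of bile acid synthesis, had means of 8.33 ± 3.56 CPM in UUO zalfermin, 11.5 ± 4.00 CPM in UUO vehicle and 74.1 ± 2.15 CPM in healthy kidneys, and fell by 2.69 on the log2 scale. For each of these 3 genes every obstructed library lay below every healthy one. Akr1a1, the general aldehyde reductase that also serves ascorbate synthesis in mice, fell by 1.43 on the log2 scale (edgeR adjusted p = 1.58e-09), and Akr7a5, which reduces succinic semialdehyde, fell by 1.69. Akr1c12 and Akr1c13 share 28.6% and 24.2% of their 50-base stretches with each other, and neither was called.

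Of 8 tested hydroxysteroid dehydrogenases 7 fell and Hsd3b7 was not called, with a median log2 fold change of -1.18. Hsd3b2 had 9.59, 17.01 and 42.9 CPM in UUO zalfermin kidneys and 17.6, 21.1 and 48.7 CPM in UUO vehicle kidneys, against 211, 208, 184 and 258 CPM in healthy kidneys. The groups were far apart, and the log2 fold change of UUO vehicle over healthy was -2.88 (SE 0.343, edgeR adjusted p = 1.52e-07), a 7.35-fold fall. It is a steroid dehydrogenase and isomerase, and it shares 25.1% of its 50-base stretches with other genes, among them Hsd3b3, which fell by 1.85 on the log2 scale. Both overlap Zfp697 on the opposite strand. Hsd17b11, a lipid droplet dehydrogenase, had 116, 139 and 162 CPM in UUO zalfermin kidneys and 122, 140 and 177 CPM in UUO vehicle kidneys, against 301, 351, 276 and 715 CPM in healthy kidneys. Its change on the log2 scale was -1.49 (SE 0.181, edgeR adjusted p = 2.04e-07). The other falls were in Hsd17b14 (log2 -1.76), the mitochondrial Hsd17b10 (log2 -0.88), Hsd17b2 (log2 -0.67), which inactivates estradiol and testosterone, and Hsd17b12 (log2 -0.50), a reductase of fatty acid elongation.

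Hsd17b1, which forms estradiol, and the antisense gene Dhrs13os had too few counts for the model. Hsd17b1 averaged 0.238 CPM in UUO zalfermin, 0.570 CPM in UUO vehicle and 0.378 CPM in healthy kidneys. A two-sided exact permutation test gave p = 0.0420 for UUO zalfermin against UUO vehicle (0.168 adjusted over 4 tests) and p = 0.479 for UUO vehicle against healthy. For Dhrs13os the same exact permutation test gave p = 0.336 for UUO zalfermin against UUO vehicle and p = 0.624 for UUO vehicle against healthy. Of 17 genes of steroid synthesis and steroid receptors 11 were tested, and obstruction raised 3 (Srd5a1, log2 0.69; Srd5a3, log2 0.30; the progesterone receptor gene Pgr, log2 2.28) and lowered 5 (among them Srd5a2, log2 -1.16; Fdx1, log2 -1.35; Fdxr, log2 -0.71; the mineralocorticoid receptor gene Nr3c2, log2 -0.41). Of 7 adrenal cortex markers Cyp11b2 was at 0 in every library and Cyp11b1 at 0 in healthy kidneys, and their sum was at most 7.09 CPM in any library. EdgeR called none of the 11 under zalfermin, and 2 had an unadjusted p below 0.05.

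Among the other short-chain dehydrogenases 3 of 5 tested fell, 1 rose and Dhrs13 was not called. Dhrs7, a microsomal reductase, had 27.2, 34.9 and 38.6 CPM in UUO zalfermin kidneys and 22.8, 27.0 and 35.1 CPM in UUO vehicle kidneys, against 12.6, 12.8, 13.1 and 14.2 CPM in healthy kidneys. It rose by 1.09 on the log2 scale (SE 0.126, edgeR adjusted p = 9.62e-08), and no obstructed library reached down to the healthy range. Dhrs1 fell by 0.62, the ether lipid enzyme gene Dhrs7b by 0.48 and Dhrs11 by 0.98 on the log2 scale.

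Levels between genes were compared as CPM per kilobase of exon, which takes no account of which isoform is used. In healthy kidneys Akr1c21 was highest at 1245 ± 135 CPM per kilobase, followed by Akr1a1 at 937 ± 156, Adh1 at 307 ± 84.4, Aldh6a1 at 247 ± 16.7, Akr7a5 at 235 ± 40.3 and Aldh2 at 197 ± 20.7 (SD, n = 4). The SD of Adh1 over libraries reached down to the levels of Aldh6a1 and Akr7a5. These genes were measured in the same libraries, and their order within a library was not tested. In both obstructed groups the mean of Akr1a1 was above that of Akr1c21, and their SDs over libraries overlapped. The order of Akr1a1 and Akr1c21 within a library was not tested. Akr1a1 was at 338 ± 27.8 in UUO zalfermin and 347 ± 66.5 in UUO vehicle kidneys, and Akr1c21 at 264 ± 86.6 in UUO zalfermin and 241 ± 53.0 in UUO vehicle kidneys. Akr1c14 was at rank 27 in UUO zalfermin, 22 in UUO vehicle and 11 in healthy kidneys.

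**Figure D4:**
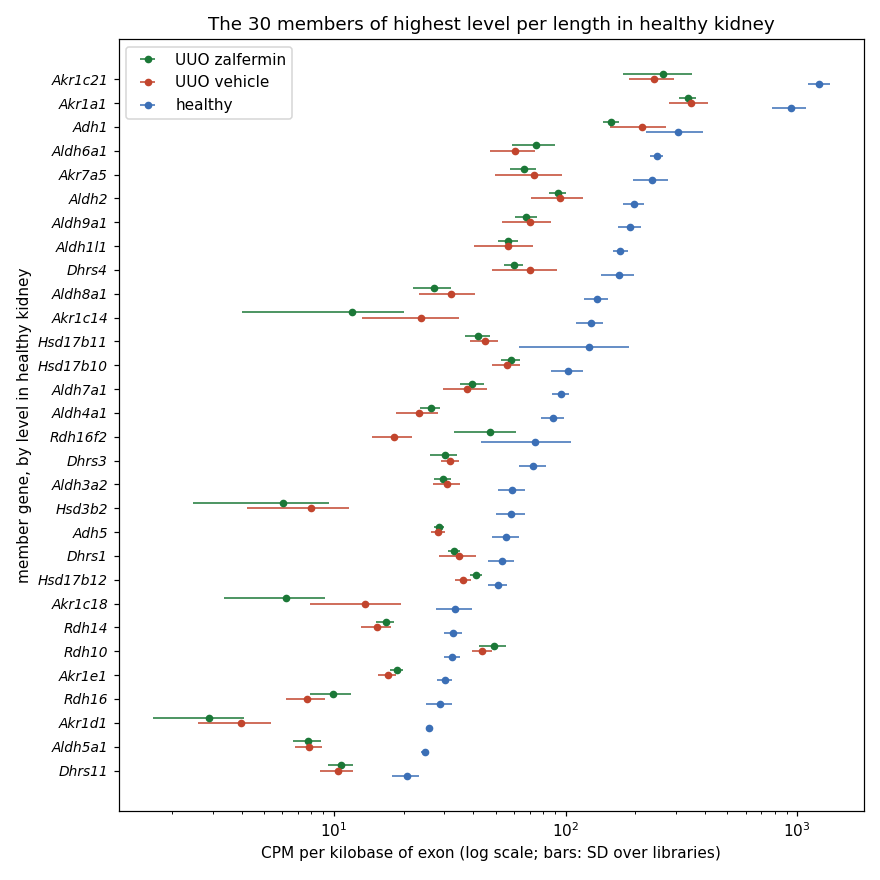
Mean level per kilobase of exon (log axis; bars, SD over libraries) of the 30 genes highest in healthy kidneys, in order of the healthy level. Akr1c21 led in healthy kidneys (1245 CPM per kilobase), and in both obstructed groups the SDs of Akr1a1 and Akr1c21 overlapped.

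The comparison of UUO zalfermin with UUO vehicle kidneys asked what the drug changed in obstructed kidneys. It shares the 7 UUO vehicle libraries with the obstruction comparison. Of the 65 tested genes 2 were called higher, Rdh16f2 and Akr1c19, and 1 lower, Akr1c18, where 0.867% of all tested genes were called higher and 0.942% lower. The median log2 fold change was 0.01 over the 65 genes and 0.01 over all tested genes. At an unadjusted p below 0.05 there were 14 of the 65, against 15.5% of all tested genes. UUO zalfermin libraries lay wholly above UUO vehicle libraries for 2 of the 65 genes (0.349% of all tested genes) and wholly below them for 0 (0.256%).

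Rdh16f2, a neighbour and close relative of the retinol dehydrogenase gene Rdh16 on chromosome 10 (ENSMUSG00000074639, GRCm38, 127866474 to 127877317, plus strand), had 52.3, 64.3, 70.3, 54.3, 68.8, 40.7, 34.5 and 90.4 CPM in the 8 UUO zalfermin kidneys and 26.4, 27.5, 22.2, 17.2, 16.95, 23.2 and 27.4 CPM in the 7 UUO vehicle kidneys, against 96.7, 88.3, 143 and 47.2 CPM in the 4 healthy kidneys. Every UUO zalfermin library lay above every UUO vehicle library, and 6 of them lay within the healthy range. The log2 fold change of UUO zalfermin over UUO vehicle was 1.37 (SE 0.206, edgeR adjusted p = 0.00122), a 2.59-fold rise. Rdh16, with 44.4, 67.5 and 75.5 CPM in UUO zalfermin kidneys and 37.6, 46.2 and 63.9 CPM in UUO vehicle kidneys, overlapped between the groups and was not called (log2 0.36, SE 0.129, edgeR adjusted p = 0.168). Rdh16f2 shares 10.03% of its 50-base stretches with other genes, among them Rdh9, which had 1 count in all libraries. Of the 8 proximal tubule markers 1 was called higher under zalfermin, Slc5a12 (log2 0.90, edgeR adjusted p = 0.0231), and the summed levels of all 8 overlapped between the groups; their part in the rise of Rdh16f2 was not tested.

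The promoters of Rdh16f2 (chr10:127866226-127866525) and Rdh16 (chr10:127800903-127801202) are shown because these neighbouring genes of the same strand both fell with obstruction while only Rdh16f2 was called under zalfermin; the difference between the genes was not tested. Sequences are from RefSeq (GRCm38.p6, plus strand, 5′ to 3′), and capitals mark matches to TATAAA or CCAAT on either strand. In Rdh16f2 these were a TATAAA match on the minus strand 35 bases before the start and a CCAAT 108 bases before it, and in Rdh16 a TATAAA 82 bases before the start. The longest stretch in common was 17 bases, gccaggctcattttgac.

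Rdh16f2: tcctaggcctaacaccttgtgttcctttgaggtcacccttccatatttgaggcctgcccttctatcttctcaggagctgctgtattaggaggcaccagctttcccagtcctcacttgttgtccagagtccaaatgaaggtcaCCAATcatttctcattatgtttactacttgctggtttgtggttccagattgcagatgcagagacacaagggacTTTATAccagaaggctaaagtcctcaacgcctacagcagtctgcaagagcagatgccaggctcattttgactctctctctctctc

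Rdh16: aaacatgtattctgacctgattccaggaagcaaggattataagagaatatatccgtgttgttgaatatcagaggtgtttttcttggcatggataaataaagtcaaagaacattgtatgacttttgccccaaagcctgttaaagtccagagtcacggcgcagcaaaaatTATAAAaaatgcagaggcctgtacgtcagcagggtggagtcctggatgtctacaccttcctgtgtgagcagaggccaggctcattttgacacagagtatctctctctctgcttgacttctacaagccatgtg

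Genes of the aldo-keto reductase cluster on chromosome 13 went opposite ways under zalfermin. Akr1c19 (ENSMUSG00000071551, GRCm38, 4228700 to 4252843, plus strand) had 27.9, 41.1, 27.6, 32.7, 35.1, 33.3, 34.1 and 36.5 CPM in the 8 UUO zalfermin kidneys and 26.6, 19.2, 19.7, 24.9, 23.4, 16.1 and 23.8 CPM in the 7 UUO vehicle kidneys, against 32.7, 26.6, 35.3 and 35.0 CPM in the 4 healthy kidneys. The UUO zalfermin libraries lay above all UUO vehicle libraries, by a narrow margin for the lowest, and their range took in the healthy values except the lowest. The log2 fold change of UUO zalfermin over UUO vehicle was 0.61 (SE 0.107, edgeR adjusted p = 0.00480), and that of UUO vehicle over healthy was -0.56 (SE 0.128, edgeR adjusted p = 5.89e-04).

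Akr1c18, which inactivates progesterone (ENSMUSG00000021214, GRCm38, 4132615 to 4150654, minus strand), had 13.5, 8.85, 11.1, 4.99, 8.07, 4.04, 5.92 and 3.86 CPM in the 8 UUO zalfermin kidneys and 27.7, 23.0, 14.1, 18.02, 12.1, 13.1 and 7.33 CPM in the 7 UUO vehicle kidneys, against 31.9, 47.7, 37.5 and 44.4 CPM in the 4 healthy kidneys. UUO vehicle replicates 5, 6 and 7 lay within the UUO zalfermin range, and all healthy libraries lay above both obstructed groups. The log2 fold change of UUO zalfermin over UUO vehicle was -1.13 (SE 0.265, edgeR adjusted p = 0.0275), and that of UUO vehicle over healthy was -1.29. The zalfermin call was lost when UUO vehicle replicate 1 or 2 or UUO zalfermin replicate 4, 5 or 7 was left out, with edgeR adjusted p = 0.0541 to 0.0711. Within a library the ratio of Akr1c18 to Akr1c19 CPM had a median of 0.195 (0.106 to 0.482) in UUO zalfermin, 0.723 (0.308 to 1.20) in UUO vehicle and 1.17 (0.976 to 1.79) in healthy kidneys. Akr1c14, which begins the cluster, had a log2 fold change of -0.99 and was not called (edgeR adjusted p = 0.0989); without UUO zalfermin replicate 1, which had 99.7 CPM, it was called lower (log2 -1.35, edgeR adjusted p = 0.00670). Akr1c12, Akr1c13, Akr1c20 and Akr1c21 were not called under zalfermin.

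The promoters of Akr1c19 (plus strand, chr13:4233490-4233789) and Akr1c18 (minus strand, chr13:4150597-4150896) are shown because these genes of a single cluster were called in opposite directions under zalfermin. Sequences are from RefSeq (GRCm38.p6), each 5′ to 3′ on its own strand, and capitals mark matches to CCAAT or to TGACNNNGC on either strand. Akr1c19 has a CCAAT match on the minus strand 172 bases before the RefSeq start, which lies inside the gene as annotated by GENCODE, and a TGACNNNGC match on the minus strand just after it. Akr1c18 holds none of the 9 motifs searched in this window.

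Akr1c19: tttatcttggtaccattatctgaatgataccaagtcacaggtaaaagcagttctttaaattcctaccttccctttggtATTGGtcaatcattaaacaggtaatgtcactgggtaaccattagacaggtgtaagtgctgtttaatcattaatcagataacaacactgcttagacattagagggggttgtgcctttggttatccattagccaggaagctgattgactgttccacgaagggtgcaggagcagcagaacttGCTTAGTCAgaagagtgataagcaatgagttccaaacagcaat

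Akr1c18: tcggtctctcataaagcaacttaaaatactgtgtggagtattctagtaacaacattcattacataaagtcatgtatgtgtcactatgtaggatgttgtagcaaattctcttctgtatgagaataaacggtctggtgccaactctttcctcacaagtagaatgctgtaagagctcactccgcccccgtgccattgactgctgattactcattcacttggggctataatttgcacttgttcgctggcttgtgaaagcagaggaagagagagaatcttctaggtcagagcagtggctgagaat

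**Figure D5:**
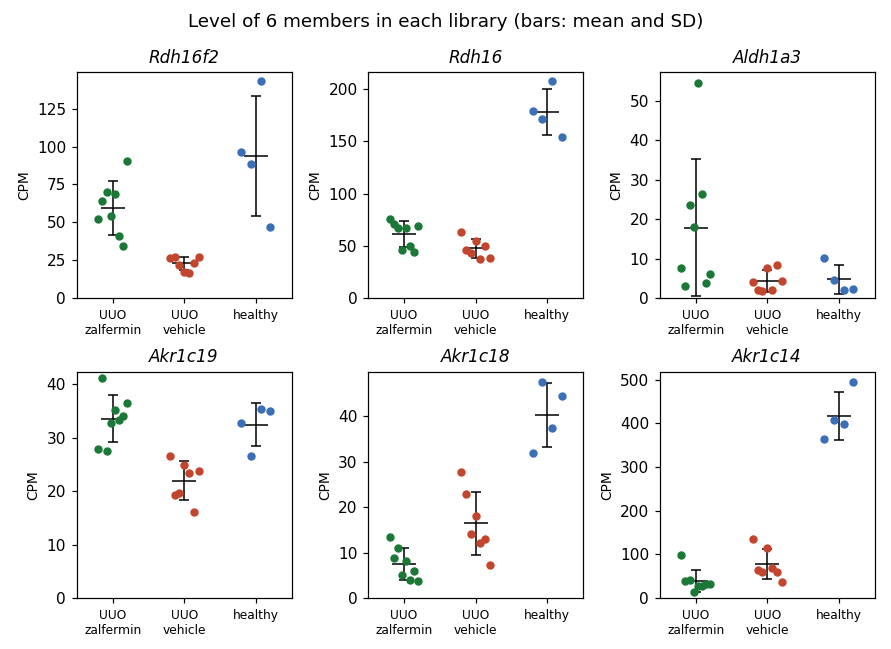
CPM of 6 genes in each library (points), by group, with mean and SD (bars). Rdh16f2 and Akr1c19 were called higher and Akr1c18 lower in UUO zalfermin than in UUO vehicle kidneys; Rdh16, Aldh1a3 and Akr1c14 were not called. Aldh1a3 reached 54.7 CPM in UUO zalfermin replicate 5, against at most 8.44 CPM in UUO vehicle kidneys.

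None of the 4 retinaldehyde dehydrogenases was called by edgeR under zalfermin. Aldh1a3 had 7.68, 3.16, 23.6, 17.97, 54.7, 26.4, 3.88 and 6.04 CPM in the 8 UUO zalfermin kidneys and 4.07, 2.22, 1.97, 7.62, 1.98, 8.44 and 4.37 CPM in the 7 UUO vehicle kidneys. UUO zalfermin replicates 3, 4, 5 and 6 were above every UUO vehicle library, and the other 4 lay within the UUO vehicle range. Its log2 fold change was 2.03 (SE 0.540, edgeR adjusted p = 0.0545), and DESeq2 called it (adjusted p = 0.0212), as did edgeR without the filter on low counts (adjusted p = 0.0219) and without UUO vehicle replicate 6 (adjusted p = 0.0303) or UUO zalfermin replicate 2, 7 or 8 (adjusted p = 0.0379 to 0.0445). Aldh1a1 had a log2 fold change of 0.49 (edgeR adjusted p = 0.112; 0.00973 without UUO vehicle replicate 4), and Aldh1a2 of -0.34 (SE 0.173, edgeR adjusted p = 0.362). Adh1 had a mean of 352 ± 27.5 CPM in UUO zalfermin, 478 ± 129.7 CPM in UUO vehicle and 686 ± 188 CPM in healthy kidneys. Its log2 fold change of UUO zalfermin over UUO vehicle was -0.44 (edgeR adjusted p = 0.101), and DESeq2 called it (adjusted p = 0.0353).

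Several genes with large changes under obstruction were not called under zalfermin. The log2 fold changes of UUO zalfermin over UUO vehicle were -0.04 (SE 0.114) for Akr1b8, -0.01 (SE 0.106) for Aldh18a1, 0.08 (SE 0.169) for Aldh1l2, 0.13 (SE 0.166) for Akr1c21, 0.16 (SE 0.101) for Aldh4a1 and -0.40 (SE 0.298) for Hsd3b2. Over the 9 aldehyde dehydrogenases of amino acid, folate and carnitine metabolism the zalfermin values ran from -0.24 to 0.30, and 1 had an unadjusted p below 0.05. Among the osmolyte genes the taurine carrier Slc6a6 was called higher under zalfermin (log2 0.41, edgeR adjusted p = 0.0374). The 6 fibroblast markers all had negative values under zalfermin, and Col1a1 was called lower (log2 -0.86, edgeR adjusted p = 0.00301). Their sums, given above beside Aldh1a2, did not overlap between UUO zalfermin and UUO vehicle. Col1a1 was the largest part of these sums, with means of 411 CPM in UUO zalfermin and 746 CPM in UUO vehicle. Pdgfra, Pdgfrb, Dcn, Lum and Postn overlapped between these groups and were not called. The 6 adipocyte markers summed to 0.912 to 156.5 CPM in UUO zalfermin, 1.34 to 35.1 CPM in UUO vehicle and 0.267 to 17.7 CPM in healthy kidneys; none was called. The part of either marker list in the zalfermin values was not tested.

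Sequence shared among promoters of the genes that moved together was described from RefSeq (GRCm38.p6), which holds promoter entries for 54 of the 67 genes, 12 of those that rose and 34 of those that fell with obstruction. CCAAT, on either strand, occurred in 7 of the 12 and 20 of the 34, and in 37.4% of all 32851 promoter entries. CAAAG, the core bound by HNF4, occurred in 8 of the 12 and 20 of the 34, and in 53.9% of all entries. TGANTCA, the AP-1 site, occurred in 3 of the 12 (Adh7, Aldh1a1 and Dhrs9) and 0 of the 34, and in 7.81% of all entries. TATAAA occurred in 3 of the 12 and 3 of the 34 (13.6% of all), TGACNNNGC in 1 and 4 (12.4%), and GTTAAT, part of the HNF1 site, in 1 and 2 (7.10%). TGATGNAA, the amino acid response element, occurred in none of either set, against 3.97% of all entries, and neither the full HNF1 site nor the retinoic acid response element was found in them (0.00913% of all entries each). The full HNF1 site and the retinoic acid response element were each searched as a single exact pattern with fixed spacing, which very few entries hold. The lack of matches therefore cannot show that these promoters lack such sites. The matches to all motifs describe letters in a 300-base window, and 6 genes had more than 1 window. A gene was counted if any of its windows matched, whereas the share of all entries is per window, so counts and shares are not alike. Aldh1a1 and Rdh11 of the 12 and Dhrs3 of the 34 each had a window without CCAAT and were counted through another. Matches to different motifs that overlap were all counted, GTTAAT being part of the full HNF1 site.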

How the data were processed

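RNA of whole kidney was sequenced in 19 libraries. Per the labels' protocols it was extracted with NucleoSpin kits and made into directional libraries with NEBNext Ultra II chemistry, and per the submitters' processing notes reads were aligned with STAR 2.7.0f to GRCm38. The deposited values are the authors' raw read counts per gene, whole numbers without normalization. The sources used here name no counting program, annotation or strand setting, so genes that overlap or share sequence may exchange reads. All 55536 identifiers were found in GENCODE M21, which gave coordinates and exon lengths.

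Genes passing edgeR's filterByExpr (minimum count 10, minimum total 15) numbered 16026, and the 39510 others held 0.115% of the counts. Of the genes of the family, 5 had fewer than 10 counts in every healthy library, Aldh3a1 and Dhrs9 among them. TMM factors were 1.02 to 1.08 in UUO zalfermin, 1.02 to 1.11 in UUO vehicle and 0.751 to 0.843 in healthy libraries. A quasi-likelihood model with group as its only term was fitted to all 19 libraries (edgeR 4.0.16, R 4.3.3), with two-sided F tests and Benjamini-Hochberg adjustment over all tested genes. SE is the log2 fold change divided by the square root of F. Tests were checked on simulated counts of 16026 genes with the same spread for every gene. For obstruction 67, 66 and 66 genes were changed 1.5-, 2- and 4-fold. Of these 44.8%, 87.9% and 100% were recovered, with 3.14% false calls. For zalfermin 65, 67 and 63 were changed, and 64.6%, 95.5% and 100% were recovered, with 5.06% false calls. In the data far more genes were called with obstruction and spread differed between genes, so these rates hold for the simulated setting only. Between any pair of libraries of a group, counts differed by more than counting error (lowest chi-square over its degrees of freedom, 5.55).

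The genes and lists were chosen with earlier results of these data known. Named in full were the 8 largest rises and falls with obstruction (called, groups not overlapping, 5 CPM or more on average), the 5 genes of smallest zalfermin p, the highest and smallest-p gene of each list, and 10 fixed genes (Aldh1a1, Aldh1a2, Aldh1a3, Aldh2, Adh1, Adh5, Akr1b3, Rdh10, Dhrs3, Hsd17b11). Alternatives were RLE factors, DESeq2 1.42.0, unfiltered genes, genes reaching 1 CPM in 4 libraries, fitting the 2 groups compared alone, removal of mitochondrially encoded genes and leaving out each library. Some genes of the pathway lists are counted but not reported here by name.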

Additional observations from a re-analysis of the deposited data

Results flagged for a closer look

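For the 29 genes named in full, the highest or lowest library of each group was compared with the rest of its group by Dixon's test (87 gene and group pairs), and 9 values stood apart; chance flags about 1 group in 20. In the UUO vehicle group, replicate 6 was highest for 4 genes. It had 753.8 CPM of Adh1, against 381 to 496 CPM in the other 6 libraries, 737 CPM of Aldh2, against 378 to 512 CPM, 166 CPM of Aldh4a1, against 100.3 to 115 CPM, and 131.8 CPM of Dhrs1, against 83.1 to 102.5 CPM. Without this library 38 genes of the family were called lower and 15 higher with obstruction, as many as with it.

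UUO zalfermin replicate 1 had 99.66 CPM of Akr1c14, against 13.1 to 41.0 CPM in the other 7 UUO zalfermin libraries, and 197.6 CPM of Aldh3a2, against 154 to 174 CPM. UUO zalfermin replicate 5 had 54.65 CPM of Aldh1a3, against 3.16 to 26.4 CPM in the others. UUO vehicle replicate 1 had 19.77 CPM of Akr1d1, against 8.10 to 12.3 CPM in the others of its group. Healthy replicate 3 had the lowest Akr1b3 of its group, 38.28 CPM, against 50.6 to 53.1 CPM in the other 3.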

How the results depend on the processing

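No paired analysis was possible because the labels give no replicate numbers and the numbers used here follow only the order of the samples. No gene called in the reported fit or under an alternative reversed direction in the alternatives run, while some genes called in neither changed sign, most of them under zalfermin. With obstruction 15 genes of the family were called higher and 38 lower in the reported fit, and 14 to 15 higher and 37 to 38 lower when a library was left out. RLE factors, DESeq2, both filters, the fit of the 2 groups compared and the removal of mitochondrially encoded genes changed no obstruction call among the genes they could test. All of these fits scale libraries for composition, and none was run on plain library totals. Small falls rest on this scaling. Akr1b10, called lower, had 3134 of 98285937 counts in UUO vehicle and 1702 of 55673028 counts in healthy libraries, which is no fall in plain share. The median log2 fold change of the family ran from -0.77 without UUO vehicle replicate 6 to -0.54 without healthy replicate 4.

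With zalfermin the reported fit called 2 genes of the family higher and 1 lower, and leaving out a library gave 2 to 3 higher and 0 to 2 lower; the causes were not tested. DESeq2 called 2 lower, Akr1c18 and Adh1. Over all genes zalfermin gave 139 higher and 151 lower calls, against 260 higher and 342 lower with DESeq2, and 71 to 242 higher and 73 to 275 lower when a library was left out, the most without UUO vehicle replicate 6. Genes under about 1 CPM, such as Hsd17b1 and Dhrs13os, rest on few counts, and small differences in them were not detectable at this depth.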

Other observations

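Several genes of these enzyme families were nearly silent in all 19 libraries. The 18 rows below 100 counts included 4 with 0 counts (Dhrs7c, Hsd3b4, Rdh16f1 and Rdh8). Among the others, Adh4, a liver alcohol dehydrogenase, had 61 counts over all libraries, the steroid dehydrogenase gene Akr1c6 had 45, Hsd3b1, the form of steroid-producing glands, had 7, Hsd17b3, which makes testosterone in the testis, had 3, and Rdh7 had 98. These totals were too low for any comparison between groups.

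The genes differed in how evenly they were expressed among libraries of a group. Over the 50 genes with at least 5 CPM, the median coefficient of variation was 13.1% in UUO zalfermin, 19.3% in UUO vehicle and 13.3% in healthy kidneys, and Aldh1a3 was the most variable gene in each group, with 97.0% in UUO zalfermin, 61.3% in UUO vehicle and 78.4% in healthy kidneys. The most even were Aldh16a1 in UUO zalfermin (4.88%), Adh5 in UUO vehicle (6.84%) and Rdh11 in healthy kidneys (1.78%).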
